A study of Homo sapiens with 2 samples.

Results

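The genes described here are 44 components of the cell's defence against oxidants: the NRF2 pathway, the thioredoxin and glutathione systems, the enzymes that supply them with NADPH, and the peroxidases and dismutases that consume oxidants. They were chosen by name and function, with earlier results of these data known. All 44 were found by gene symbol among the 26506 genes of the deposited tables. Poly(A) RNA was sequenced from a repository (ATCC) line of human corneal epithelium after 72 hours in either of 2 media. The special medium was DMEM/F12 to which EGF (10 ng/mL), fetal bovine serum (10%), calcium chloride (1 mM) and an antibiotic with an antimycotic (1x) had been added. KSFM is keratinocyte serum-free medium, whose composition the labels do not list. Basal formula, serum, calcium and any other component change together between the media and cannot be told apart. RNA from 3 cultures was pooled into 1 library per medium, so no difference has a replicate check and no p-value is given. The special medium library held 16900472 counts and the KSFM library 21604652.

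NRF2 is a transcription factor that KEAP1, its sensor, normally marks for destruction. Oxidants and electrophiles modify KEAP1, NRF2 then accumulates, pairs with a small MAF protein and binds antioxidant response elements near genes for glutathione synthesis, thioredoxin reduction, NADPH supply and iron storage. Thioredoxin and glutathione carry reducing power from NADPH to peroxiredoxins, glutathione peroxidases and oxidised proteins, and the pentose phosphate pathway is a main source of that NADPH. The corneal surface faces light and oxygen, and these systems are known there as part of its protection.

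A gene was counted as higher or lower in the special medium when it reached 1 CPM (1 count in 1000000 of the scaled library) in at least 1 library, differed by at least 2-fold, and had an exact 95% interval that excluded equality. Intervals after a ratio cover counting error only. Of the 44 genes, 41 reached 1 CPM. Of these, 5 were higher (TXNRD1, NQO1, TKT, SOD2 and GSR), 1 was lower (GLRX) and 35 were neither. The share past the rule was 14.6%, against 16.6% of the 13632 genes measured in the series, so the count is near the background. By direction, 12.2% of the 41 were higher, against 9.86% of all genes, and 2.44% were lower, against 6.77%. The median log2 ratio of the 41 was 0.13, against 0.00 over all measured genes. The interval lay above equality in 20 of the 41, below it in 13 and across it in 8. Over all 13632 measured genes it lay above in 5075, below in 5007 and across in 3550, so most intervals excluded equality there too. In bulk RNA, fewer cells that express a gene and less of its RNA per cell cannot be told apart.

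**Figure D1:**
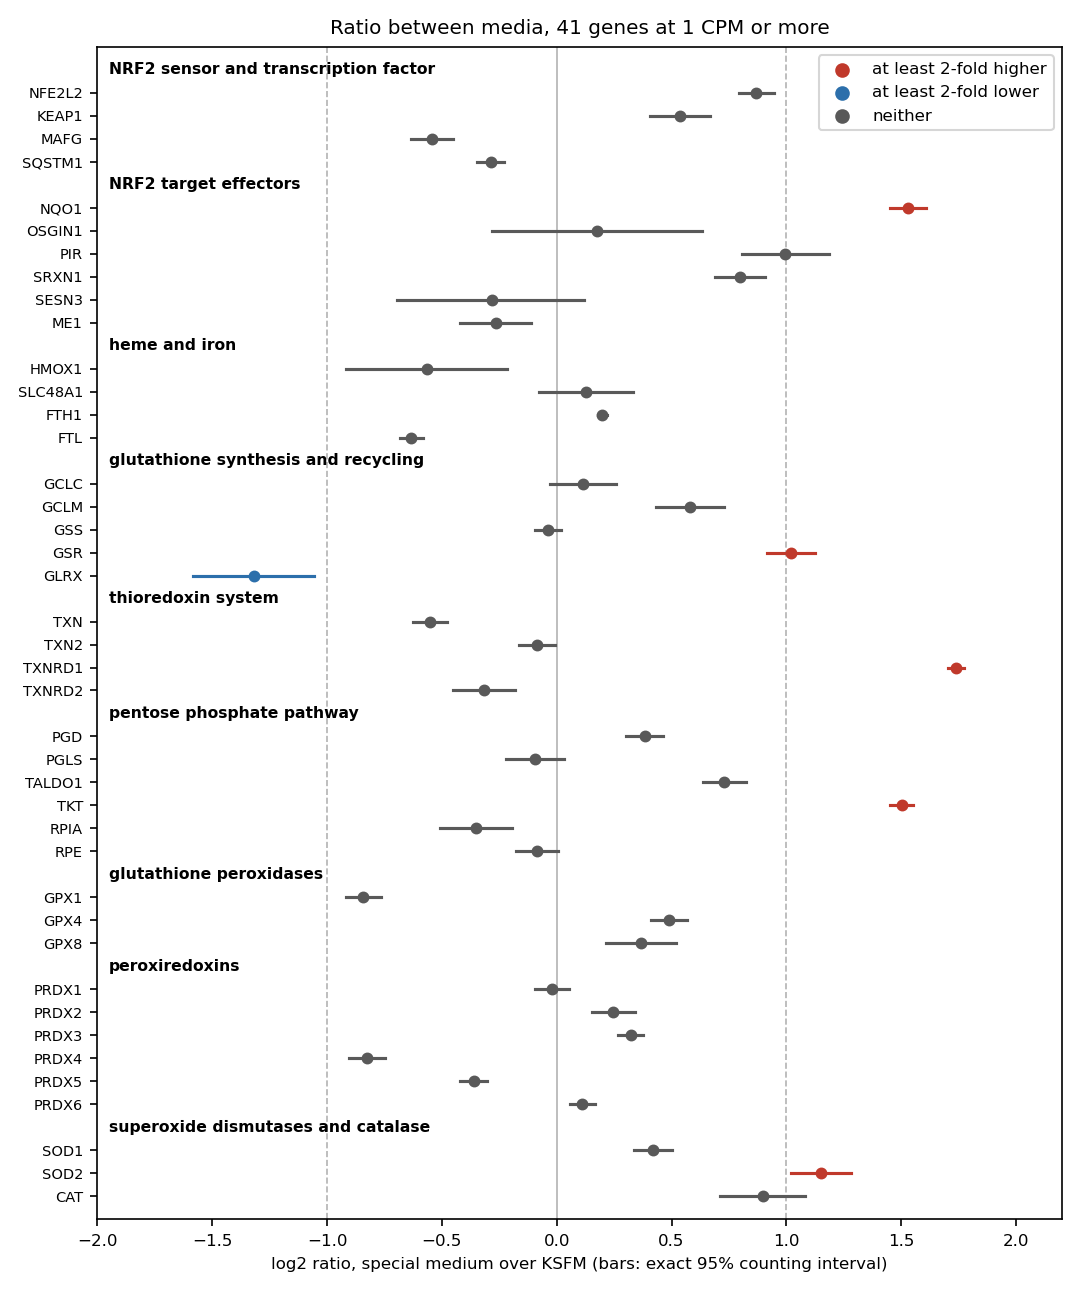
Log2 ratio of special medium over KSFM (horizontal axis) for the 41 genes at 1 CPM or more, grouped by role; bars are exact 95% counting intervals, and dashed lines mark 2-fold. TXNRD1, NQO1, TKT, SOD2 and GSR lie past the upper line with intervals above equality, GLRX lies past the lower line, and most genes of each role lie between the lines.

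Levels are compared between genes on the TPM scale, which divides by transcript length. The TPM values of all 44 genes summed to 12525 in the special medium, or 1.25% of the library, and to 10104 in KSFM, or 1.01%. Of this difference of 2421 TPM, FTH1 made up 42.9%, TXNRD1 21.0% and TKT 17.4%, while FTL and GPX1 were lower in the special medium by 279 and 174 TPM. On this scale the median ratio of all measured genes shifts upward by 0.15 (log2), a factor of 1.11, so sums are also given divided by that factor. A TPM ratio smaller than this factor can stand beside a count ratio below equality, as for TXN2, PGLS, GSS and RPE. The sum over the 44 genes was 1.24 times as large in the special medium, or 1.12 times after the division.

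**Figure D2:**
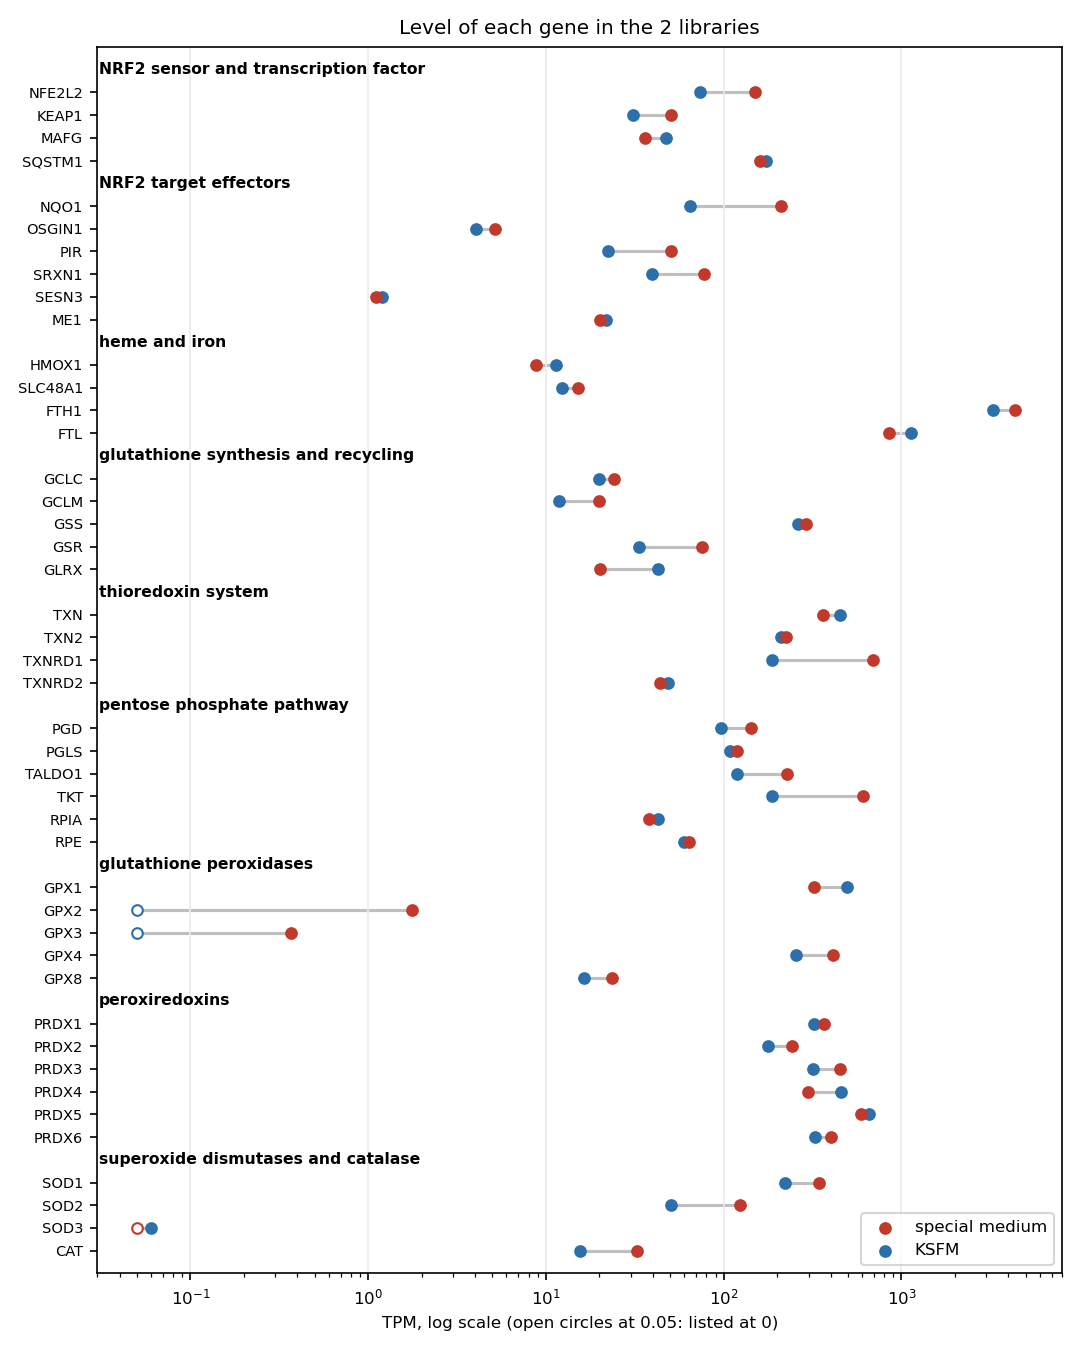
Deposited TPM (horizontal log axis) of each of the 44 genes in the special medium (red) and in KSFM (blue), grouped by role; open circles are values listed at 0. FTH1 was the most abundant in both libraries, at 4326 TPM in the special medium and 3287 TPM in KSFM, and the widest gaps among abundant genes are those of TXNRD1, TKT and NQO1.

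Of 9 markers of corneal and stratified epithelium, 5 reached 1 CPM. The general epithelial markers CDH1 and EPCAM and the basal keratin KRT5 were among them, as was PAX6, the eye transcription factor, at 73 counts in the special medium and 69 in KSFM. KRT15, a keratin of basal cells, had 160 counts in the special medium and 60 in KSFM, 3.40-fold higher (2.51 to 4.66). The other basal markers were below 1 CPM, with 10 counts of KRT14 in the special medium and 4 in KSFM, and 13 counts of TP63 in the special medium and 5 in KSFM. The keratins that define differentiated cornea were at or near 0, with 1 count of KRT3 in the special medium and 0 in KSFM and 0 counts of KRT12 in both. Of 28 markers of fibroblasts, endothelium, immune and blood cells and melanocytes, 21 stayed below 1 CPM in both libraries. The summed level of the endothelial list was 20.2 CPM in the special medium and 2.97 CPM in KSFM. Fibroblast markers summed to 9.28 CPM in the special medium and 8.20 CPM in KSFM, immune and blood markers, most of it CD68, to 60.4 CPM in the special medium and 59.3 CPM in KSFM, and melanocyte markers to 27.8 CPM in the special medium and 23.4 CPM in KSFM. Among them LUM, KERA, TEK, CD163, CD3E, HBB, HBA1, TYR and SOX10 were at 0 in both. CDH5, an endothelial cadherin, differed most among them, with 236 counts in the special medium and 3 in KSFM. The part of any other cell type in the results was not tested.

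Antioxidant response elements share the core TGACNNNGC, which was searched on both strands of RefSeq promoter windows (GRCh38.p14) running from 250 bases before to 50 bases after each annotated start. Windows were found for 36 of the 44 genes; FTH1, GSR, GSS, HMOX1, PRDX1, PRDX6, SOD1 and TXN2 had none in that table. The core was present for 8 of the 36 genes (22.2%), against 16.1% of all 27305 gene symbols with a window. The core followed directly by A, called the longer form below, was present for 4 of the 36 (11.1%), against 3.94% of all symbols. The 12 matches are shown so that the element can be compared between genes that differed and genes that did not; each is written 5′ to 3′ on the strand that reads TGACNNNGC, with the core in capitals. A match is a description of sequence and not evidence of binding.
TXNRD1, chr12:104215670-104215698, plus strand: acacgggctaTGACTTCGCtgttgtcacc
TXNRD1, chr12:104215761-104215789, minus strand: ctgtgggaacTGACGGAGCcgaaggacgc
TXNRD1, chr12:104286920-104286948, minus strand: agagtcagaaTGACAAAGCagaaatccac
GCLM, chr1:93909446-93909474, plus strand: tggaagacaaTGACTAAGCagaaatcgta
GPX2, chr14:64942849-64942877, plus strand: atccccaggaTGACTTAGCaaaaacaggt
KEAP1, chr19:10502784-10502812, plus strand: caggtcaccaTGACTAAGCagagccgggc
KEAP1, chr19:10502807-10502835, minus strand: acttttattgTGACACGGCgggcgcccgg
PIR, chrX:15493289-15493317, plus strand: agcctcaccgTGACTCAGCgcttcgcggc
ME1, chr6:83431022-83431050, plus strand: gctgctggggTGACGGTGCtgactgcagc
ME1, chr6:83431170-83431198, minus strand: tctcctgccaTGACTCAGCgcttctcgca
PGD, chr1:10398853-10398881, minus strand: agcacctagaTGACATTGCcccggcgagg
RPE, chr2:210002477-210002505, plus strand: ggcggacggcTGACAGCGCcccaccccag
The longer form, with A after the core, was found in the GCLM and GPX2 matches, in the first KEAP1 match and in the third TXNRD1 match. The PIR match and the second ME1 match also contain TGACTCA, the site of AP-1 factors.

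TXNRD1, the gene with the largest ratio of the 41 measured, has 2 annotated start windows, and both are shown whole on the plus strand with the core matches in capitals, read as TGACNNNGC or as its reverse complement.
TXNRD1, upstream start, chr12:104215529-104215828: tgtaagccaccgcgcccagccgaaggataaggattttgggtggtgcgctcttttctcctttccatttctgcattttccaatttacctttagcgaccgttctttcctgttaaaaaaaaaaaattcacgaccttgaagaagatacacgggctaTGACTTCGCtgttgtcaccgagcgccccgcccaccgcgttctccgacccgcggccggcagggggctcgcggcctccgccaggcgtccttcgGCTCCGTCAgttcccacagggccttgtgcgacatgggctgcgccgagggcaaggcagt
TXNRD1, downstream start, chr12:104286782-104287081: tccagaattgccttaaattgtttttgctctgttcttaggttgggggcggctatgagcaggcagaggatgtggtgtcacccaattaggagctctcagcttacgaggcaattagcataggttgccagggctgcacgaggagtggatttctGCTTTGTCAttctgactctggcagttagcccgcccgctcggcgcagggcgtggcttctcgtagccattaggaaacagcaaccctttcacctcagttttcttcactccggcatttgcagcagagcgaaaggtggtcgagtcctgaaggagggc
The upstream window holds 2 matches and the downstream window 1. The deposited tables give a sum per gene, so the use of either start was not analysed here.

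None of the 4 regulators passed the rule. NFE2L2, which encodes NRF2 itself, had 150 TPM in the special medium and 73.7 TPM in KSFM. Its ratio on counts was 1.83 (1.73 to 1.92), short of the 2-fold rule, and it passed 2-fold on TPM with a pseudocount of 1 (log2 1.02) but not after centring of that scale. KEAP1, the sensor, had 50.5 TPM in the special medium and 31.0 TPM in KSFM, a log2 count ratio of 0.54 (0.41 to 0.67). MAFG, the small MAF partner, had 36.2 TPM in the special medium and 47.2 TPM in KSFM (log2 ratio −0.54). SQSTM1, an autophagy receptor that can draw KEAP1 away from NRF2, had 159 TPM in the special medium and 173 TPM in KSFM (log2 ratio −0.29). NFE2L2 and KEAP1 lay above equality, and MAFG and SQSTM1 below it. The count ratio of NFE2L2 to KEAP1, which needs no scaling between libraries, was 1.26 times (1.14 to 1.40) as large in the special medium.

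Among effectors that NRF2 is known to induce, NQO1, a quinone reductase and a classical reporter of the pathway, had 211 TPM in the special medium and 64.8 TPM in KSFM. With 4287 counts in the special medium and 1894 in KSFM it was 2.89-fold higher (2.73 to 3.05). NQO1 lies on chromosome 16 at 69706996 to 69726951 (GRCh38, GENCODE release 29). NQO1 ranked 757th by TPM of all genes in the special medium and 2563rd in KSFM. PIR, an iron-binding nuclear protein, had 588 counts in the special medium and 376 in KSFM and a ratio of 1.99 (1.75 to 2.28), just under the rule. On TPM with a pseudocount of 1, PIR passed it (log2 1.15). SRXN1, which repairs over-oxidised peroxiredoxins, had 77.2 TPM in the special medium and 39.5 TPM in KSFM, a ratio of 1.74 on counts (1.61 to 1.87).

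The other effectors did not pass the rule. OSGIN1, a growth inhibitor induced by oxidative stress, had 78 counts in the special medium and 88 in KSFM (log2 ratio 0.18, −0.28 to 0.63). SESN3, a sestrin, had 85 counts in the special medium and 132 in KSFM (log2 ratio −0.28, −0.69 to 0.12). For both the interval spans equality, so a difference was not detectable at this depth. ME1, the cytosolic malic enzyme that makes NADPH, had 20.2 TPM in the special medium and 21.7 TPM in KSFM, with a log2 count ratio of −0.27 (−0.42 to −0.11). Summed TPM over the 6 effectors was 365 in the special medium and 154 in KSFM, 2.38 times as large, or 2.14 times after division by the TPM shift.

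No heme or iron gene passed the rule. HMOX1, the stress-induced heme oxygenase that degrades heme, had 106 counts in the special medium and 200 in KSFM. Its log2 ratio of −0.57 (−0.92 to −0.22) lay below equality without passing the rule. SLC48A1, a heme transporter, had a log2 ratio of 0.13 (−0.08 to 0.33), and its interval spans equality. The ferritin subunits diverged: FTH1, the heavy chain that oxidises iron, had 4326 TPM in the special medium and 3287 TPM in KSFM, and FTL, the light chain, had 849 TPM in the special medium and 1128 TPM in KSFM. FTH1 was the 13th most abundant transcript by TPM in the special medium and the 46th in KSFM. The count ratio of FTH1 to FTL was 1.78 times (1.72 to 1.84) as large in the special medium. Ferritin genes have many processed copies, 25 of FTH1 and 16 of FTL in GENCODE release 29, of which the tables list 2 and 1, so their counts are less certain than their intervals show.

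Glutathione is made by glutamate-cysteine ligase and glutathione synthetase. GCLC, the catalytic subunit of the ligase, had 740 counts in the special medium and 872 in KSFM (log2 ratio 0.11, −0.03 to 0.26). GCLM, the modifier subunit, had 19.9 TPM in the special medium and 11.9 TPM in KSFM (log2 ratio 0.58, 0.43 to 0.73). Set against each other, the GCLC to GCLM count ratio in the special medium was 0.723 times (0.628 to 0.833) that in KSFM. GSS, the synthetase, was close between the media, at 290 TPM in the special medium and 263 TPM in KSFM, with a log2 count ratio of −0.04 (−0.10 to 0.02).

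Genes that recycle or use glutathione passed the rule in both directions. GSR, glutathione reductase, had 1909 counts in the special medium and 1201 in KSFM and was 2.03-fold higher (1.88 to 2.18). GSR lay just inside the rule and just outside it with upper quartile scaling (log2 1.00, below the threshold). GLRX, a glutaredoxin that uses glutathione to release protein thiols, had 159 counts in the special medium and 505 in KSFM and was 2.49-fold lower, a log2 ratio of −1.32 (−1.58 to −1.06). GLRX was the only gene of the 44 past the rule downward, and its log2 ratio became −0.90, no longer past the rule, when the trend of all ratios on transcript length and GC content was removed. It also has 3 annotated pseudogenes.

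The thioredoxin system differed between reductase and substrate. TXNRD1, the cytosolic thioredoxin reductase and a selenoprotein, had 695 TPM in the special medium and 186 TPM in KSFM. With 22128 counts in the special medium and 8460 in KSFM it was 3.34-fold higher (3.25 to 3.42), the largest ratio among the 41 and the 545th of all 13632 measured genes. It lies on chromosome 12 at 104215779 to 104350305 (GRCh38). TXN, its substrate thioredoxin, had 360 TPM in the special medium and 453 TPM in KSFM, a log2 count ratio of −0.55 (−0.63 to −0.48). TXNRD1 thus made up 52.5% of the summed TPM of the 4 genes in the special medium and 20.8% in KSFM, and TXN 27.2% in the special medium and 50.5% in KSFM. As a count ratio, TXNRD1 to TXN was 4.89 times (4.62 to 5.18) as large in the special medium.

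The mitochondrial counterparts differed less. TXNRD2, the mitochondrial reductase, had 43.9 TPM in the special medium and 48.4 TPM in KSFM (log2 count ratio −0.32, −0.45 to −0.18). TXN2, mitochondrial thioredoxin, had 225 TPM in the special medium and 209 TPM in KSFM (log2 count ratio −0.09, −0.17 to −0.01). Their count ratio, TXNRD2 to TXN2, was 0.852 times (0.765 to 0.949) that in KSFM, the opposite direction to the cytosolic pair. No TXNRD1 pseudogene is annotated, against 7 for TXN.

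In the pentose phosphate pathway transketolase and transaldolase, of the non-oxidative branch, had the largest ratios. TKT, transketolase, which moves carbon between sugar phosphates, had 608 TPM in the special medium and 186 TPM in KSFM. On 10367 counts in the special medium and 4669 in KSFM the ratio was 2.83 (2.74 to 2.93), and TKT ranked 200th by TPM in the special medium and 767th in KSFM. It lies on chromosome 3 at 53224707 to 53256052 (GRCh38). TALDO1, transaldolase, which works beside it, had 226 TPM in the special medium and 119 TPM in KSFM, a ratio of 1.66 (1.55 to 1.77). Between them, the TKT to TALDO1 count ratio was 1.71 times (1.59 to 1.84) as large in the special medium, so the pair did not differ by the same factor.

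Of the oxidative branch, PGD, the phosphogluconate dehydrogenase that yields NADPH, had 142 TPM in the special medium and 96.9 TPM in KSFM (log2 count ratio 0.38, 0.30 to 0.46). PGLS, the lactonase before it, had 118 TPM in the special medium and 109 TPM in KSFM (log2 count ratio −0.09, −0.22 to 0.03). RPE, the epimerase, had 63.6 TPM in the special medium and 60.1 TPM in KSFM (log2 count ratio −0.09, −0.18 to 0.01). RPIA, the isomerase, had 38.1 TPM in the special medium and 42.9 TPM in KSFM (log2 count ratio −0.35, −0.51 to −0.20). Summed TPM of the 6 enzymes was 1197 in the special medium and 613 in KSFM, 1.95 times as large, or 1.76 times after division by the TPM shift. TKT made up 50.8% of that sum in the special medium and 30.3% in KSFM.

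**Figure D3:**
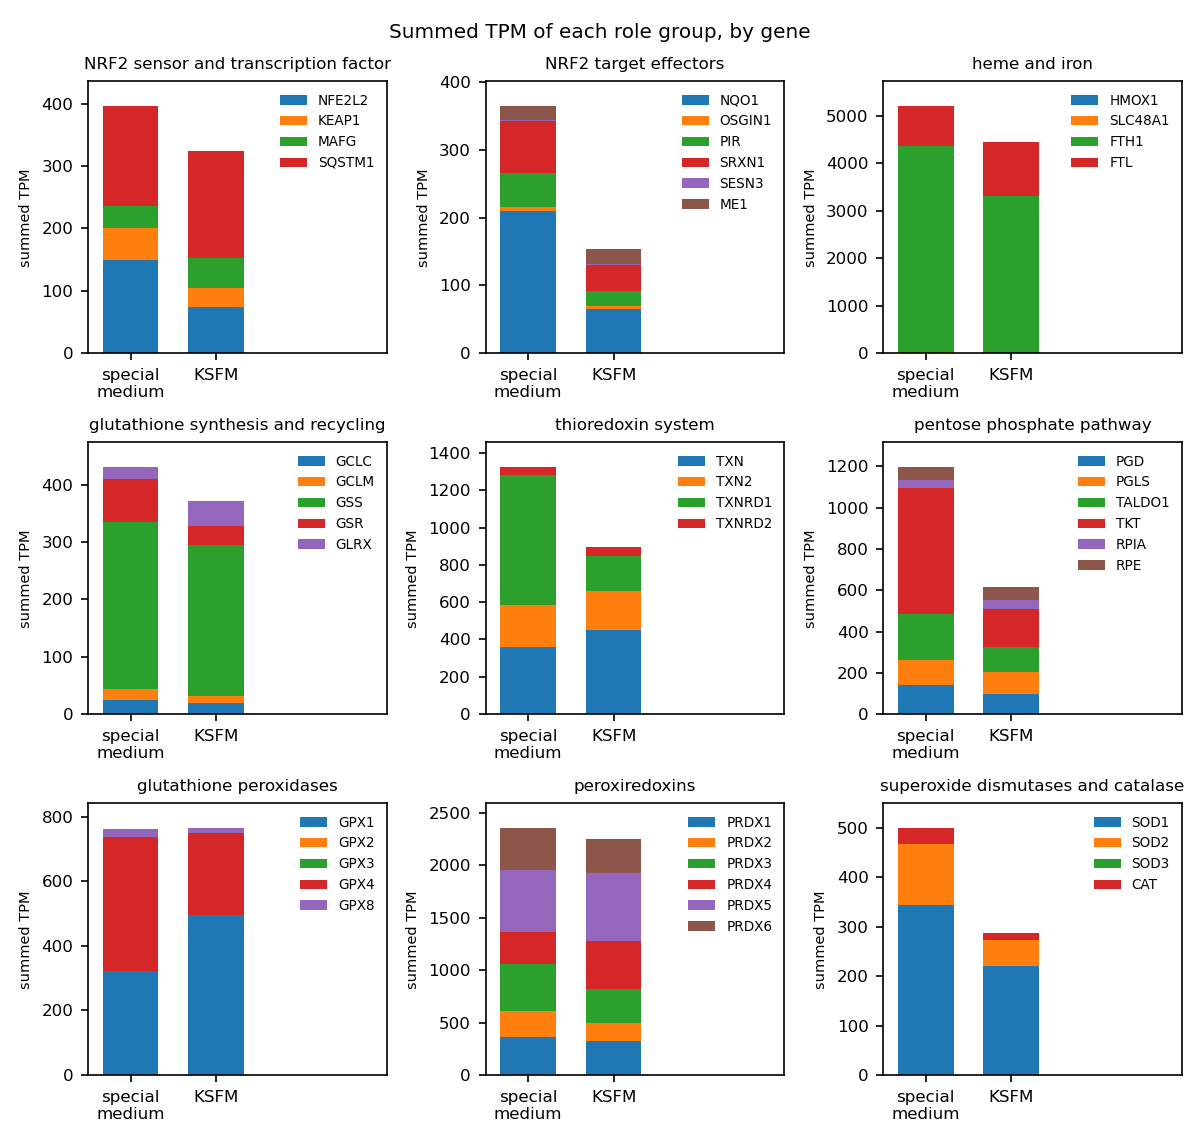
Summed TPM (vertical axes, each starting at 0 with its own scale) of each role group in the special medium (left bar) and in KSFM (right bar), stacked by gene. TXNRD1 and TKT make up 52.5% and 50.8% of their groups in the special medium against 20.8% and 30.3% in KSFM, while the undivided sums of peroxiredoxins and glutathione peroxidases are 1.04 and 0.996 times those in KSFM.

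Glutathione peroxidases summed to 761 TPM in the special medium and 765 TPM in KSFM, 0.996 times as large, or 0.898 times after division by the TPM shift, and differed in makeup. GPX1, the cytosolic enzyme, had 321 TPM in the special medium and 495 TPM in KSFM, a log2 count ratio of −0.84 (−0.92 to −0.77). GPX4, which reduces lipid peroxides in membranes and guards against ferroptosis, had 414 TPM in the special medium and 254 TPM in KSFM (log2 ratio 0.49, 0.41 to 0.57). GPX1 was the more abundant in KSFM and GPX4 in the special medium, and the count ratio of GPX4 to GPX1 was 2.52 times (2.34 to 2.71) as large in the special medium. GPX8, of the endoplasmic reticulum, had 23.5 TPM in the special medium and 16.4 TPM in KSFM (log2 ratio 0.37).

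GPX2, an epithelial form known from the gut, had 14 counts in the special medium and 0 in KSFM. Against a floor of 3 counts in the KSFM library the ratio was 5.95, and its interval, which kept the 0, began at 4.23. GPX3, the secreted plasma form, had 5 counts in the special medium and 0 in KSFM. By the same floor its ratio was 2.13, and its interval began at 1.17. Both stayed below 1 CPM in both libraries. A count of 0 allows up to 3 counts, or 0.177 CPM in the special medium and 0.139 CPM in KSFM. The GPX2 promoter is among the 4 with the longer element, printed above.

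No peroxiredoxin passed the rule. Summed TPM of the 6 was 2354 in the special medium and 2254 in KSFM, 1.04 times as large, or 0.941 times after division by the TPM shift. The exception in size was PRDX4, the peroxiredoxin of the endoplasmic reticulum, with 1963 counts in the special medium and 4441 in KSFM (log2 ratio −0.83, −0.90 to −0.75). PRDX3, of mitochondria, had 453 TPM in the special medium and 319 TPM in KSFM (log2 count ratio 0.32, 0.27 to 0.38), and the count ratio of PRDX3 to PRDX4 was 2.22 times (2.08 to 2.37) as large in the special medium. The cytosolic PRDX1 and PRDX2 had log2 count ratios of −0.02 (−0.09 to 0.05) and 0.25 (0.15 to 0.34). PRDX5, found in several compartments and the most abundant of the family, had 591 TPM in the special medium and 653 TPM in KSFM. Its log2 count ratio of −0.36 became 0.16 once the length and GC trend was removed. PRDX6, which also acts as a phospholipase, had 400 TPM in the special medium and 326 TPM in KSFM (log2 count ratio 0.11, 0.06 to 0.16).

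All 3 measured genes of the superoxide and catalase group lay above equality. SOD2, the manganese dismutase of mitochondria, which inflammatory signals are known to induce, had 123 TPM in the special medium and 50.7 TPM in KSFM. Its counts were 1326 in the special medium and 762 in KSFM, a ratio of 2.22 (2.03 to 2.43), and its locus is on chromosome 6 at 159669057 to 159745186 (GRCh38). SOD1, the cytosolic copper and zinc enzyme, had 343 TPM in the special medium and 221 TPM in KSFM (log2 count ratio 0.42, 0.33 to 0.50). For SOD2 to SOD1 the count ratio was 1.66 times (1.49 to 1.85) as large in the special medium. CAT, catalase, had 32.7 TPM in the special medium and 15.6 TPM in KSFM, a ratio of 1.86 on counts (1.64 to 2.12) and a log2 ratio of 1.02 on TPM with a pseudocount of 1. SOD3, the extracellular dismutase, had 0 counts in the special medium and 1 in KSFM, so no ratio is given. The SOD2 row carries 2 Ensembl identifiers, and exons of WTAP overlap SOD2 on the opposite strand, so although the kit is stranded, the strand setting of the counting is not stated and their reads may not be fully separated. Genes on the opposite strand also overlap exons of NQO1, NFE2L2, MAFG, SQSTM1, SESN3, SLC48A1, FTH1, GCLC, TXNRD2, PGLS, RPE, PRDX1 and PRDX2, and the same limit holds for them.

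Genes with and without the printed element overlapped in their ratios. Among the 8, ratios were available for 7 at 1 CPM or more, with a median log2 ratio of 0.54, from −0.27 for ME1 to 1.74 for TXNRD1, and 1 passed the rule. Among the 26 measured genes whose windows lacked it the median was 0.12, and 3 were higher (NQO1, TKT and SOD2) and 1 lower. Sequence outside the windows was not searched, so a gene without a match may still have the element elsewhere. Over all measured genes with a window, 9.04% of the 1969 with the core were higher, against 9.44% of the 8168 without it, and the medians were −0.02 with it and −0.00 without it.

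Median ratios were lowest for short transcripts and did not rise steadily with length. In GENCODE release 29, the 1022 measured genes with transcripts under 1000 nucleotides had a median log2 ratio of −0.39, and 17.9% were lower. The 5159 genes of 2000 to 4000 nucleotides had a median of 0.08, with 4.88% lower. For the 3042 genes over 4000 nucleotides the median was 0.03, with 3.75% lower. The 11 genes of the 41 with transcripts under 1000 nucleotides, among them GLRX, FTL, TXN, PRDX4 and PRDX5, had a median of −0.09, and the 12 genes of 2000 to 4000 nucleotides, among them TXNRD1, TKT and NFE2L2, had 0.56. Across the 41 genes the Spearman correlation of ratio and length was 0.29, and across all 12548 measured genes with a length 0.12; the points of each share the same 2 libraries. With the trend on length and GC content removed, TXNRD1, NQO1, TKT, SOD2 and GSR were still past the rule, with log2 ratios of 1.69 for TXNRD1 and 1.08 for GSR, and the median of the 41 was 0.27, against 0.04 over all genes. The part of length in single genes was not tested.

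**Figure D4:**
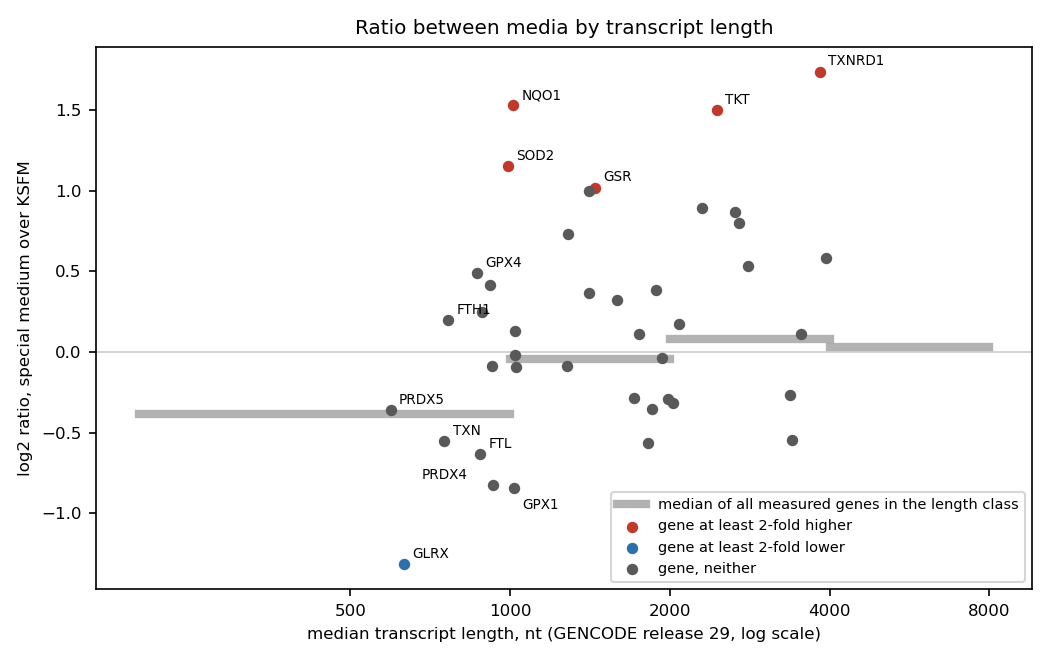
Log2 ratio of special medium over KSFM (vertical axis) against median transcript length (horizontal log axis) for the 41 genes; grey bars are medians of all measured genes in each length class, the outermost classes being open-ended. The shortest class has a median of −0.39 over all genes, and GLRX, TXN, FTL, PRDX4 and PRDX5 fall in that class.

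TXNRD1, NQO1, TKT and SOD2 passed under every alternative run except a 4-fold rule. Scaling by total counts gave 5 of the 41 higher and 1 lower, against 9.91% and 6.73% of all genes, and DESeq2 size factors gave the same 5 and 1, against 9.84% and 6.79%. Upper quartile scaling gave 4 higher, without GSR, and 1 lower, against 9.5% and 7.08%. On TPM with a pseudocount of 1, 8 were higher, with NFE2L2, PIR and CAT added, and 1 lower, against 9.29% and 2.56%, so that the split of all genes moved from 1344 higher and 923 lower on counts to 1266 and 349. After centring, 5 were higher and 1 lower, against 6.81% and 3.93%, and with a pseudocount of 0.1, 8 and 1, against 12.3% and 4.44%. A filter of 10 CPM left 5 higher and 1 lower, against 7.57% and 4.28%, and no filter gave 7, with GPX2 and GPX3 added, and 1, against 6.02% and 4.18%. At 4-fold none of the 41 passed (0 higher, 0 lower), against 2.99% and 1.19%, and with the whole interval beyond 2-fold 4 were higher, without GSR, and 1 lower, against 6.14% and 2.9%. With the length and GC trend removed, 6 were higher, with PIR added, and 0 lower, against 10.6% and 4.92%.

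Related genes outside the 44 were read from lists by function, 139 genes in all, of which 113 reached 1 CPM. The special medium had 19 of them higher and 4 lower (16.8% and 3.54%, against 9.86% and 6.77% of all genes), with a median log2 ratio of 0.07. Among 16 measured NRF2 targets outside the 44, 9 were higher and 0 lower (median 1.09). The largest ratios at 10 CPM or more were those of TRIM16L and TRIM16, 9.39-fold (7.92 to 11.2) and 4.83-fold (4.14 to 5.64) higher. These are close paralogs with fractional counts, so the split of reads between them is uncertain.

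Other suppliers of NADPH were mixed. Of 18 measured, 2 were higher and 1 lower (median 0.14). The cytosolic isocitrate dehydrogenase IDH1 was 2.80-fold higher (2.63 to 2.99), and ALDH1L2, a mitochondrial folate enzyme, was 2.38-fold lower (1.84 to 3.11). Among 16 thioredoxin-fold and methionine sulfoxide reductase genes 1 was higher and 3 lower (median −0.32). The higher gene, TXNIP, which binds and inhibits thioredoxin, had 18370 counts in the special medium and 127 in KSFM and was 184-fold higher (155 to 221). The glutaredoxin GLRX2 was 2.70-fold lower (2.26 to 3.26), the same direction as GLRX, and TXNDC17, a thioredoxin-like protein, 2.06-fold lower (1.82 to 2.33), while the third lower gene, MSRB3, was below 10 CPM.

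Of 23 other glutathione genes 3 were higher and 0 lower (median −0.14): the glutathione-cleaving enzyme GGT5 by 2.83-fold (2.32 to 3.47) and the transferases GSTK1 by 2.53-fold (2.35 to 2.72) and MGST1 by 2.18-fold (2.02 to 2.34). Of 13 NRF2 partners and regulators 2 were higher and 0 lower (median 0.31), the NRF2 relative NFE2L3 by 6.35-fold (5.71 to 7.08) and the ubiquitin ligase TRIM21 by 2.73-fold (2.24 to 3.33). Of 17 heme and iron genes 1 was higher and 0 lower (median −0.03), the transferrin receptor TFRC at 2.11-fold (1.96 to 2.27). Of the oxidases that make superoxide or peroxide only 4 of 17 listed were measured, and 2 were higher, among them xanthine dehydrogenase, XDH, by 2.18-fold (1.70 to 2.81). None of 9 selenoprotein synthesis genes passed the rule (median 0.10), and SEPHS2, the most abundant by TPM, had 62.8 TPM in the special medium and 63.4 TPM in KSFM.

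**Figure D5:**
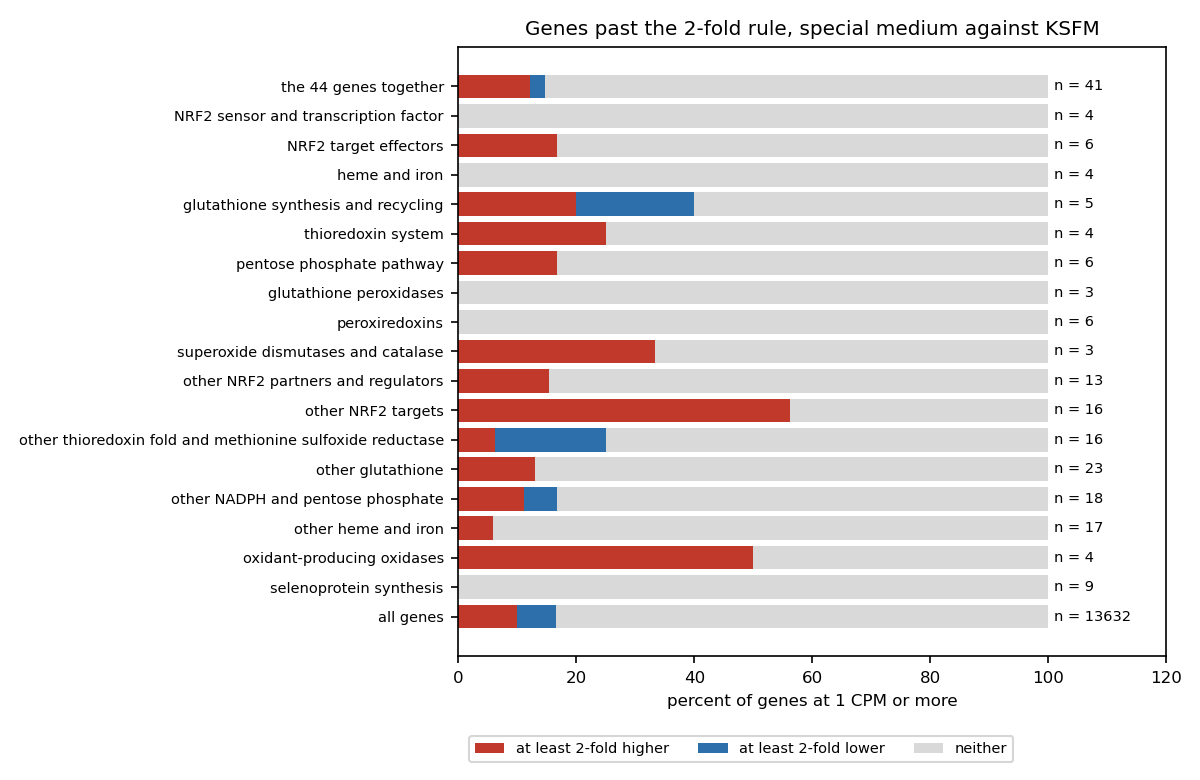
Percent of the genes at 1 CPM or more that were at least 2-fold higher (red), at least 2-fold lower (blue) or neither (grey) in the special medium against KSFM, for the 44 genes together (41 measured), their role groups, the related lists and all genes. The top bar reaches 14.6% and the bottom bar 16.6%, and the list of other NRF2 targets has 9 of 16 higher.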

How the data were processed

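Poly(A) RNA of cultured human corneal epithelial cells was sequenced in 2 libraries, each a pool of 3 cultures. Tools in the submitters' processing notes are HISAT2 2.1.0, RSEM, fastp 0.20.0 and FastQC 0.11.9, with GRCh38 as the build. The annotation, the RSEM version and the strand used in counting were not given in the sources used here. What the authors deposited was estimated counts (expected counts, fractional for 7 of the 44 genes) and TPM values per gene symbol.

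Counts were rounded and scaled by edgeR 4.0.16 TMM (R 4.3.3). Each ratio is special medium over KSFM with a 95% Clopper-Pearson interval, exact given the sum of both counts. A 0 was set to 3 counts to give a ratio, while the interval kept the 0. No molecular identifiers are described, so reads may not be independent molecules, and intervals and floors cover counting error only. Ratios of 9 partner pairs, chosen after values were seen, have approximate normal 95% intervals on the log odds scale. Transcript length and GC content are GENCODE release 29 medians over basic transcripts. Promoters are RefSeq's.

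Every one of the 44 genes is described; of each related list, up to 3 genes past the rule at 10 CPM or more with the largest ratio are named, or the most abundant. The genes and lists were chosen with earlier results of these data known. SELENOP was not analysed here, and some genes of the related and marker lists are counted but not reported here by name. Alternatives were scaling by total counts, by upper quartiles or by DESeq2 1.42.0, log2 TPM ratios (pseudocounts of 1 and 0.1, the first also centred), a 10 CPM or no filter, a 4-fold rule, intervals wholly beyond 2-fold and, added after the data were seen, removal of a cubic trend on length and GC content. Python 3.11.15 with scipy 1.17.1 was used.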

Additional observations from a re-analysis of the deposited data

How the results depend on the processing

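No paired analysis was possible because each medium has 1 library and no replicate number. Scaling by total counts, by DESeq2 size factors or by upper quartiles left all 6 calls in place except that of GSR under upper quartiles (log2 1.00). On TPM, 8 of the 44 genes were higher with a pseudocount of 1 and also with 0.1 (PIR, NFE2L2 and CAT added), and their median log2 ratio was 0.29 with each; all genes lower numbered 349 with a pseudocount of 1, 536 after centring and 605 with 0.1, and related genes lower 2 with a pseudocount of 1, centred or not. With a filter of 10 CPM, 788 of all genes were higher and 446 lower. By a 4-fold rule 408 of all genes were higher and 162 lower, 5 related genes were higher and 0 lower, and 0 of the 44 were higher and 0 lower. With intervals wholly beyond 2-fold, 837 of all genes were higher and 395 lower, 2 related genes were lower, and GSR was no longer past the rule. Without a filter GPX2 and GPX3 passed the rule. With the length and GC trend removed, PIR passed the rule, 0 of the 44 were lower and their median was 0.27. The cause of these shifts was not tested. The sign of GSS, PGLS, PRDX1, PRDX5, RPE and TXN2, none of them past the rule, turned under at least 1 alternative. Depth limits OSGIN1, SESN3, GPX2, GPX3 and SOD3 most.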
